A study of Rattus norvegicus with 4 samples.

Results

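The genes of the actomyosin cytoskeleton and its stress fibres were examined in HSC-T6, an immortalised rat hepatic stellate cell line. They were chosen by symbol from the deposited count table as a list of 39 genes that covers actins, actin-binding proteins, tropomyosins, myosin chains, intermediate filaments, the transcription factor SRF with its coactivators, and the kinases Rock1 and Rock2. Of these 39 genes, 38 had a row among the 32883 genes of the table. The study sequenced total RNA from 2 libraries of untreated cells and 2 libraries of cells treated with ginsenoside Rk1 (written GRK1 in the labels), a saponin of processed ginseng. All groups are the same line with no genetic change named, and the labels give no dose, time or vehicle. Each group has n = 2. The labels do not state whether replicates were grown as independent cultures, and the p-values then describe the scatter among these 4 libraries, which may be technical.

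A stress fibre is a bundle of actin filaments held together by alpha-actinin and filamin, wrapped by tropomyosin and pulled by non-muscle or smooth muscle myosin. Myosin pulls when its regulatory light chain is phosphorylated by myosin light chain kinase or by the kinases Rock1 and Rock2. Many genes of the smooth muscle set carry CArG boxes, the DNA element bound by SRF, and are switched on when free actin monomer falls and MRTF coactivators enter the nucleus. In liver, stellate cells that turn into myofibroblasts gain smooth muscle actin and contract, while the cytoplasmic isoforms of the same protein families are made in nearly every cell.

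The libraries held between 18008586 and 20430930 counts each, of which the listed genes took 1.16% to 1.32%. The cell type label was checked against markers. The matrix and mesenchymal markers Col1a1, Col3a1, Vim, Pdgfrb and Pdgfra were present, as was the stellate marker Gfap at 12 to 80 counts per library, but no read was counted for the stellate markers Lrat and Reln, and Hand2 had at most 1 count per library. A count of 0 allows a level of up to 0.148 to 0.167 CPM (counts per 1e6 counts, with totals scaled by TMM), for counting error only. Of the other liver cell types, the endothelial and macrophage lists summed to 0.668 to 1.95 CPM in every library, and the hepatocyte list to at most 0.33 CPM beside Tf. Tf itself, a gene of the hepatocyte list, was at 48.6 to 52.8 CPM, from 887 to 1073 counts per library. In the cholangiocyte list Krt7, Krt19 and Epcam had 0 to 4 counts, while Spp1, which mesenchymal cells also express, was abundant. Both other genes of that list were lower with Rk1: Sox9 was at 7.24 and 8.84 CPM untreated and 2.45 and 2.36 CPM with Rk1 (log2 fold change -1.74 ± 0.17 SE, adjusted p = 6.7e-04), and Spp1 fell by 0.41 ± 0.03 (adjusted p = 3.2e-04). The stellate list, 12 rows with 8 above 1 CPM throughout, moved with treatment: it summed to 18900 and 17800 CPM untreated and 12000 and 11900 CPM with Rk1, mostly from Col1a1 and Col3a1. Of its 9 tested genes 5 were lower, beside 10.5% of all genes tested. The 5 were Gfap (-1.88 ± 0.32), Lum (-1.37 ± 0.13), Dcn (-0.99 ± 0.10), Col3a1 (-0.88 ± 0.03) and Col1a1 (-0.59 ± 0.04), while Vim, Des, Pdgfra and Pdgfrb did not pass. The part of these markers in the results was not tested. Bulk RNA cannot tell fewer cells of a kind from less RNA per cell.

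In the comparison of Rk1 with untreated cells, the largest falls among the members were those of transgelin, smooth muscle actin and the myosin light chain kinase. Tagln fell 7.18-fold, Acta2 5.44-fold, Mylk 2.57-fold, and Lmod1, Tpm1, Smtn and Cald1 by between 1.93-fold and 1.31-fold. Among the abundant cytoplasmic genes Flna, Cnn2, Tpm4, Myh10 and Tagln2 fell by 0.16 to 0.27 on the log2 scale, and Actb, Actg1, Actn1, Actn4, Vim, Cfl1 and Pfn1 did not pass. Rock2 was the 1 member called higher. The falls did not separate muscle from ubiquitous isoforms by the number of calls, although the deepest falls were of muscle isoforms. Of 7 tested muscle isoforms 3 were lower (Acta2, Tagln and Tpm1), with a median log2 fold change of -0.10 and a range of -2.84 to 0.37. Of 12 tested ubiquitous isoforms 5 were lower (Flna, Cnn2, Tpm4, Myh10 and Tagln2), with a median of -0.16 and a range of -0.27 to 0.10. These sets come from the families compared below, whose muscle side includes Flnc and Des. Smtn, Lmod1, Mylk and Cald1 were in neither set. By edgeR's quasi-likelihood test with Benjamini-Hochberg adjustment over 12316 genes, 12 of the 33 members tested were lower, beside 10.5% of all genes tested. The count of higher members was 1, beside 11.5% of all genes. The median log2 fold change of the 33 members was -0.13, against 0.0011 for all genes tested. Both Rk1 libraries lay below both untreated libraries in 21 of the 33 members, beside 30.9% of all genes tested, and above them in 5, beside 32.1%. Acta2 passed the filter on low counts through the untreated libraries, so it counts among the 33 only because it was higher there. Of the 12 lower genes, 7 were lower whichever library was left out: Tagln, Acta2, Mylk, Tpm1, Smtn, Cald1 and Flna. With a library left out, which leaves 1 library in a group, the number of lower members changed. So did the number of genes called among all genes.

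**Figure D1:**
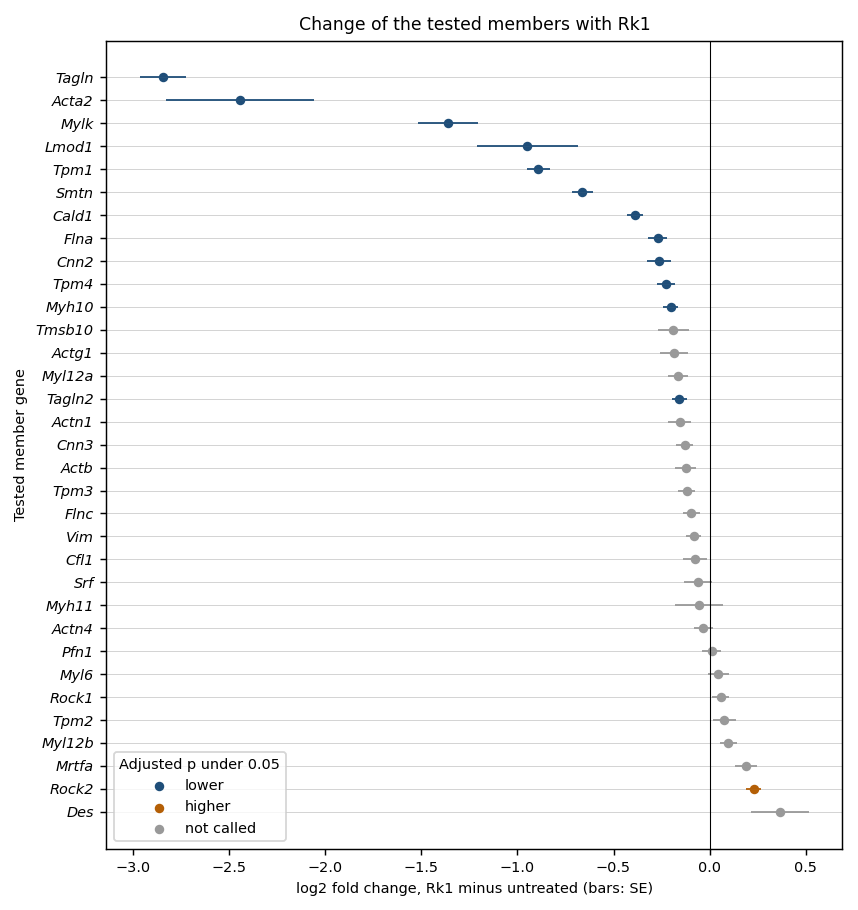
Log2 fold change of each tested member (Rk1 minus untreated, horizontal axis), with bars of 1 standard error, coloured by the call at an adjusted p under 0.05. Tagln (-2.84) and Acta2 (-2.44) stand farthest to the left, most abundant cytoplasmic genes lie between -0.27 (Flna) and 0.10 (Myl12b), and Rock2 (0.23) is the gene called higher.

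Promoter sequence was examined because several members fell together. RefSeq windows on assembly GRCr8, from 250 bases before to 50 bases after the annotated start, were matched by symbol for 33 of the 39 genes. No window was at hand for Actb, Actn4, Tagln, Lmod1, Myl9 and Myh11. The strict CArG box was found in 3 of the 33 genes (Cnn2, Srf and Actg1) and in 1.77% of the 27457 genes with a window. Allowing at most 1 C or G inside the box, a looser form that includes the strict one, added Acta2 and Tpm3, for 5 of 33 genes beside 10.1% of all genes. By call, the strict box was in 1 of the 10 lower members with a window and in 2 of the other 23. The looser form was in 2 of those 10 and in 3 of those 23. The hexamer GGAATG, the core bound by TEAD factors, was searched on both strands (as GGAATG or CATTCC), a choice made after the expression values were known. It was found in 7 of the 10 lower members with a window (Acta2, Cald1, Tpm1, Myh10, Mylk, Tagln2 and Flna). Those 10 genes have 11 windows, and the further window, another start of Cald1, held 0 matches. The other 23 members, of which Actg2, Cnn1, Myh9 and Tagln3 were not tested and Mrtfb had no row, held it in 2 (Flnc and Pfn1). Myh9 is placed there by its own row, although the row Myh9l1, described below, was called lower. In all genes the share with the hexamer was 15%. Among tested genes matched by symbol the share was 11.7%, and among those called lower 14%. A match describes letters in this window only. The 250 bases before the start are shown for the genes with the largest falls that hold a match and for the strict CArG genes, with CArG-type boxes and the TEAD hexamer in capitals.
Acta2, minus strand, chr1:241172504-241172753: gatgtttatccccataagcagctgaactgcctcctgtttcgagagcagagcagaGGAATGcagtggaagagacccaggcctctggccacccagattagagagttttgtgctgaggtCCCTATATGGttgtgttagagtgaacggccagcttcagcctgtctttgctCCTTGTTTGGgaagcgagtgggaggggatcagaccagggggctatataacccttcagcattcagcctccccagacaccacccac
Mylk, minus strand, chr11:79498575-79498824: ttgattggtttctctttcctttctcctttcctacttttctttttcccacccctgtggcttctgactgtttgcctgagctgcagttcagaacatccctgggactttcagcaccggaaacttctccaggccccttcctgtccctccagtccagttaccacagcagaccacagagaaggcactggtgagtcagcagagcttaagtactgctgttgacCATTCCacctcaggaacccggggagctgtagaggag
Tpm1, minus strand, chr8:76543416-76543665: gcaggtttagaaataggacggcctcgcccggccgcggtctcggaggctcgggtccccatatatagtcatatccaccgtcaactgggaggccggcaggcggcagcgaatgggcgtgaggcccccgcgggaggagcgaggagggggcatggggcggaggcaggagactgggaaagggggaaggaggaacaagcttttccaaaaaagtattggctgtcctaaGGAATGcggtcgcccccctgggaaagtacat
Cald1, plus strand, chr4:64233006-64233255: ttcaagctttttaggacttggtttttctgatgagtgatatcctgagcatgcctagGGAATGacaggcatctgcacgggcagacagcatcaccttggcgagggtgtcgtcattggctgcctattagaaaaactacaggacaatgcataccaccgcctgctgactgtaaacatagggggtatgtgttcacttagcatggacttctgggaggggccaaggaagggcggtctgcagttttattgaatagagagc
Cnn2, minus strand, chr7:10370313-10370562: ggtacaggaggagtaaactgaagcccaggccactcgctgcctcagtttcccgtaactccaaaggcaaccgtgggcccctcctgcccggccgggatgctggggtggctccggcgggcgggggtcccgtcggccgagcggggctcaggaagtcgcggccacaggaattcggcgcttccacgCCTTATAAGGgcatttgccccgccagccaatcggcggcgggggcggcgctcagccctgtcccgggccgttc
Srf, plus strand, chr9:21923826-21924075: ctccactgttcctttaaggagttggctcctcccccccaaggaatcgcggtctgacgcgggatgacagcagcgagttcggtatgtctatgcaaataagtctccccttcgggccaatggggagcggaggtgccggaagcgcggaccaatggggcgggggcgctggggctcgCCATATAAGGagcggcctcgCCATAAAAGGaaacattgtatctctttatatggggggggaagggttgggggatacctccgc
Actg1, minus strand, chr10:106120952-106121201: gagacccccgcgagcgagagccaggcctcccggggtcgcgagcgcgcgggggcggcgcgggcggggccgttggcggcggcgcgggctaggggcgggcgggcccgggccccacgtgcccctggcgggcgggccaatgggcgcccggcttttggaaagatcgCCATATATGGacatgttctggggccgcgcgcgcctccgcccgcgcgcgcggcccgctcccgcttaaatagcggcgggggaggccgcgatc
Acta2 is the window that holds both kinds of match, with the looser CArG boxes CCCTATATGG and CCTTGTTTGG beginning 134 and 84 bases before the start and the hexamer 196 bases before it. The strict boxes begin 81 and 61 bases before the start of Srf, 90 before Actg1 and 71 before Cnn2, and of these genes Cnn2 was the one called lower.

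Among the actins, the smooth muscle isoform Acta2 fell and the cytoplasmic isoforms did not pass. Acta2 (ENSRNOG00000058039, chromosome 1, 252537615 to 252550394, minus strand, Rnor_6.0) was at 3.59 and 3.08 CPM untreated and at 0.890 and 0.329 CPM with Rk1, from 73, 56, 16 and 6 counts. The groups were far apart, and relative to their level the Rk1 libraries differed from each other more than the untreated ones did. The fall was 5.44-fold (log2 fold change -2.44 ± 0.39 SE, adjusted p = 0.0047). Actb, cytoplasmic beta-actin, was at 1959 and 1825 CPM untreated and at 1819 and 1652 CPM with Rk1 (-0.12 ± 0.06, adjusted p = 0.15). Its lower untreated library almost met the higher Rk1 library. Actg1, cytoplasmic gamma-actin, was at 596 and 537 CPM against 528 and 468 CPM (-0.19 ± 0.07, adjusted p = 0.11), again with groups that nearly touched. Without Rk1 replicate 1, Actb and Actg1 were both called lower, at -0.20 and -0.28, and so was Actg1 without untreated replicate 2, at -0.27. Actg2, the enteric smooth muscle actin, had 0 to 2 counts per library and was not tested. A row on another chromosome, LOC100361457, taken here as related to Actg1, held 2034 to 2856 counts per library. Its sequence was not compared with that of Actg1, and whether reads of Actg1 are divided between the rows was not tested.

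Per base of exon, the smooth muscle actins were a trace of all actin transcripts and became a smaller one. Levels per length are given as RPKM, which is CPM per kilobase of exon, from the exon lengths deposited with the table. Actb stood at 1551 and 1445 RPKM untreated and Acta2 at 2.58 and 2.21. Acta2 and Actg2 together made up 0.126% and 0.115% of the RPKM of the 4 actins untreated and 0.0335% and 0.0182% with Rk1.

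**Figure D2:**
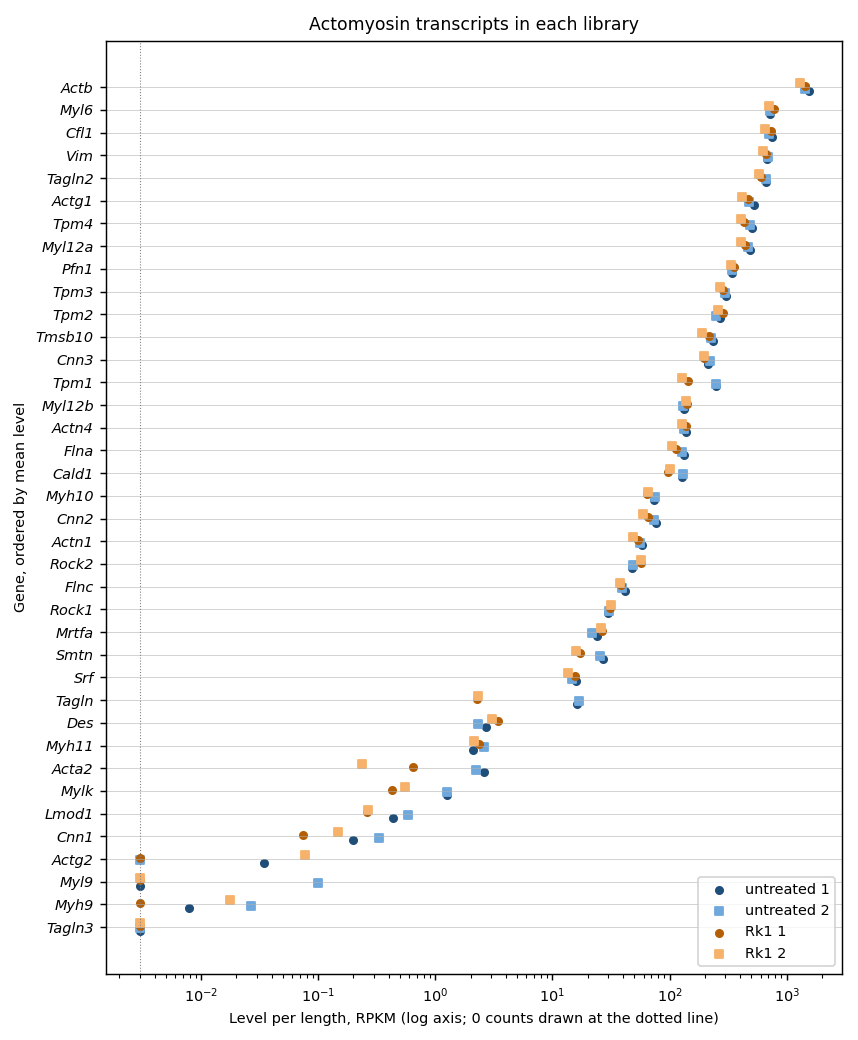
Level of all 38 genes with a row in each of the 4 libraries, as RPKM on a log axis, ordered by mean level; libraries with 0 counts are drawn at the dotted line. Actb lies near 1500 RPKM, while Tagln, Acta2, Mylk and Lmod1, whose untreated and Rk1 points are clearly apart, lie below 20 RPKM.

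Of 9 listed genes for thin filament regulators, a set that includes the widely expressed Tagln2, Cnn2 and Cnn3, 7 were tested and 6 fell, beside 10.5% of all genes called lower. The calls for Tagln, Smtn and Cald1 held whichever library was left out, and those for Tagln2, Cnn2 and Lmod1 did not. Tagln encodes transgelin, an early smooth muscle actin-binding protein. Tagln (ENSRNOG00000017628, chromosome 8, 50222896 to 50231357, minus strand) was at 16.6 and 17.1 CPM untreated and at 2.34 and 2.36 CPM with Rk1. The libraries of a group were nearly equal and the groups lay 7.18-fold apart (-2.84 ± 0.12, adjusted p = 2.2e-05). Sidt2, annotated on the same strand over one end of Tagln, held 1234 to 1638 counts per library and rose by 0.31 ± 0.06 (adjusted p = 0.013), and reads in the overlap could not be assigned here. Tagln2, the widely expressed transgelin, was at 870 and 859 CPM against 791 and 759 CPM (-0.16 ± 0.04, adjusted p = 0.029). The call for Tagln2 did not hold without untreated replicate 1 (adjusted p = 0.13), without untreated replicate 2 (0.087) or without Rk1 replicate 2 (0.12). Tagln3, the neuronal member, had 0 counts in every library.

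Smoothelin, caldesmon and leiomodin moved in the same direction as transgelin. Smtn encodes smoothelin, a marker of contractile smooth muscle, and was at 88.52 and 84.98 CPM untreated and 56.69 and 53.03 CPM with Rk1 (-0.66 ± 0.05, adjusted p = 2.7e-04). Cald1 encodes caldesmon, which restrains actomyosin, and was at 576 and 580 CPM against 434 and 449 CPM (-0.39 ± 0.04, adjusted p = 8.4e-04). In both genes the gap between groups was many times the gap within them. Lmod1 encodes a leiomodin that nucleates actin filaments in smooth muscle, and had 40 and 48 counts untreated and 21 and 22 with Rk1 (-0.95 ± 0.26, adjusted p = 0.041). At so few counts the call for Lmod1 was lost when any 1 library was left out (adjusted p = 0.051 to 0.21) and by DESeq2 (adjusted p = 0.25).

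The calponins bind actin and slow myosin. The smooth muscle calponin Cnn1 had 6 and 9 counts untreated and 2 and 4 with Rk1, and was too low to test. The ratio of its summed counts, Rk1 over untreated, was 0.426, with an exact (Clopper-Pearson) 95% binomial interval of 0.135 to 1.16 that covers counting error only, so no difference was detectable at this depth. Cnn2 was at 55.0 and 53.4 CPM untreated and 47.4 and 42.9 CPM with Rk1 (-0.26 ± 0.06, adjusted p = 0.021). Its call was lost by DESeq2 (0.078) and on leaving out untreated replicate 1 (0.094), on leaving out untreated replicate 2 (0.055) or on leaving out Rk1 replicate 2 (0.078). The Palm gene overlaps Cnn2 on the opposite strand. Cnn3, the abundant acidic calponin, was at 420 and 445 CPM with untreated cells and 394 and 396 CPM with Rk1, short of the threshold (-0.13 ± 0.04, adjusted p = 0.076).

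Tropomyosins lie along the actin filament and set which myosins may bind, and here a single member accounted for most of the difference. Tpm1 (ENSRNOG00000018184, chromosome 8, 72814740 to 72842228, minus strand) was at 323 and 320 CPM untreated and at 185 and 163 CPM with Rk1. This was a 1.85-fold fall (-0.89 ± 0.06, adjusted p = 1.5e-04). Tpm2, the other muscle tropomyosin, was at 294 and 273 CPM against 313 and 284 CPM, with groups that overlapped (0.08 ± 0.06, adjusted p = 0.41). The cytoskeletal Tpm4 fell from 515 and 495 CPM to 444 and 420 CPM (-0.23 ± 0.05, adjusted p = 0.013), but not without untreated replicate 1 (adjusted p = 0.057) or Rk1 replicate 2 (0.052). Tpm3 was at 536 and 523 CPM against 501 and 474 CPM (-0.12 ± 0.04, adjusted p = 0.096). Tropomyosin genes are spliced into several isoforms, which counts summed over a gene do not separate.

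For myosin, the kinase and the heavy chain Myh10 fell, and the other chains tested among the members did not pass. Mylk (ENSRNOG00000002215, chromosome 11, 69013050 to 69223158, minus strand), the myosin light chain kinase, was at 9.75 and 9.83 CPM untreated and at 3.34 and 4.28 CPM with Rk1 (-1.36 ± 0.16, adjusted p = 0.0013). Every Rk1 value was less than the smaller untreated value by a wide margin. Myh10, the heavy chain of non-muscle myosin IIB, was at 565 and 573 CPM against 487 and 502 CPM (-0.20 ± 0.04, adjusted p = 0.011; 0.052 without Rk1 replicate 1). Myh11, the smooth muscle heavy chain, was at 13.69 and 17.03 CPM against 15.47 and 14.04 CPM, with groups that overlapped (-0.06 ± 0.13, adjusted p = 0.79). The light chains Myl6 (0.05 ± 0.05), Myl12a (-0.17 ± 0.05, adjusted p = 0.061) and Myl12b (0.10 ± 0.04) did not pass. Myl12a was near the threshold. It was called lower by DESeq2, with robust dispersions, with upper quartile scaling and with a filter at a mean of 5 CPM. By limma and with no scaling factor Myl12a was not called. Myl9, the smooth muscle regulatory light chain, had 2 counts in untreated replicate 2 and 0 elsewhere, against 2842 to 9659 for Myl12a and Myl12b.

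The row named Myh9, the heavy chain of non-muscle myosin IIA that most cells express strongly, held only 0 to 3 counts per library. The RefSeq gene table on GRCr8 gives Myh9l1 as another name of Myh9, and the deposited table has a separate row Myh9l1 (chromosome 7, 118992356 to 119071712, Rnor_6.0). That row, chosen after its values were seen, held 951 to 1567 counts and went from 77.2 and 85.5 CPM untreated to 52.9 and 56.2 CPM with Rk1. It was lower by 1.49-fold (-0.58 ± 0.06, adjusted p = 0.0011), also when any 1 library was left out. The row named Tmsb10, a thymosin that binds actin monomer, covers 135 bases of chromosome 7, while RefSeq places Tmsb10 on chromosome 4. A row described as thymosin beta 10-like on chromosome 4 (LOC100364435) held 18075 to 23956 counts against 467 to 648 in the row named Tmsb10. Neither thymosin row passed (-0.15 ± 0.06, adjusted p = 0.11, and -0.19 ± 0.08, adjusted p = 0.14). With these rows in place of Myh9 and Tmsb10, 13 members were lower and 1 higher.

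The crosslinkers of the bundle differed among themselves. Flna, filamin A, was at 1123 and 1079 CPM untreated and 950 and 877 CPM with Rk1 (-0.27 ± 0.05, adjusted p = 0.0084). Flnc, the muscle filamin, was at 375 and 356 CPM against 345 and 339 CPM, with no call (-0.10 ± 0.04, adjusted p = 0.17). The alpha-actinins Actn1 (-0.16 ± 0.06, adjusted p = 0.10) and Actn4 (-0.03 ± 0.05, adjusted p = 0.69) did not pass either, although Actn1 was called lower without Rk1 replicate 1 (-0.24). Of the intermediate filaments, Vim was at 1272 and 1278 CPM against 1235 and 1175 CPM (-0.08 ± 0.04, adjusted p = 0.18). Des, desmin, the muscle intermediate filament that marks stellate cells in rats, was at 5.86 and 5.05 CPM untreated and 7.46 and 6.64 CPM with Rk1 (0.37 ± 0.15, adjusted p = 0.13). Both Rk1 libraries lay above both untreated libraries for Des, opposite to Acta2 and Tagln, without passing. The monomer-handling proteins cofilin, Cfl1 (-0.07 ± 0.06), and profilin, Pfn1 (0.01 ± 0.05), had overlapping groups.

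Within families, the muscle isoforms did not move as a block against the ubiquitous ones. For each of 8 families the log2 ratio of summed muscle counts to summed ubiquitous counts was taken in each library, which does not depend on scaling. The transgelin ratio (Tagln over Tagln2 and Tagln3) was -5.71 and -5.65 untreated and -8.39 and -8.31 with Rk1, a difference of -2.67. The actin ratio (Acta2 and Actg2 over Actb and Actg1) was -9.44 and -9.57 against -11.32 and -12.15, a difference of -2.23. In both families the muscle isoform lost share by more than 4-fold. The tropomyosin ratio (Tpm1 and Tpm2 over Tpm3 and Tpm4) differed by -0.19, and the calponin ratio by -0.997 on very few counts of Cnn1. The ratio was higher with Rk1 in filamins (Flnc over Flna, by 0.18) and intermediate filaments (Des over Vim, by 0.45), where Rk1 and untreated libraries did not overlap. For myosin heavy chains (Myh11 over Myh9 and Myh10) the groups overlapped, with a difference of 0.15, or 0.19 with Myh9l1 counted as Myh9. The regulatory light chain ratio has no meaning at 0 to 2 counts of Myl9. The 2-sided exact permutation p was 0.333 for the 6 families without overlap, the smallest that 2 libraries against 2 can give, and 0.444 after adjustment over 8 families, so no ratio could pass.

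**Figure D3:**
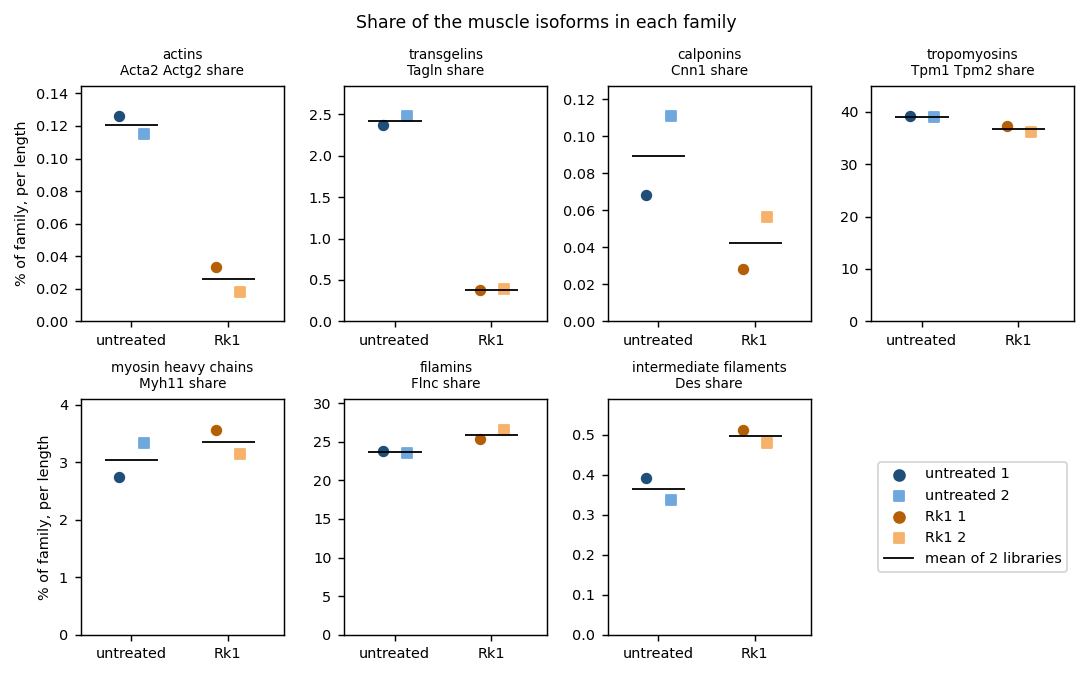
Share of the muscle isoforms in the summed RPKM of their family, in percent, for each library (points) with the mean of 2 libraries (line); each panel starts at 0. Tagln falls from 2.42% to 0.383% of transgelins and Acta2 with Actg2 from 0.1204% to 0.0259% of actins, while Tpm1 with Tpm2 moves from 38.99% to 36.75% and Flnc from 23.7% to 25.9%.

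Of the transcription factors and kinases upstream, Rock2 was called higher and Srf, Mrtfa and Rock1 did not pass. Srf was at 65.0 and 60.3 CPM untreated and 64.0 and 56.2 CPM with Rk1, with overlapping groups (-0.06 ± 0.07, adjusted p = 0.59). Mrtfa, the actin-sensing coactivator, was at 80.1 and 72.9 CPM against 88.5 and 85.9 CPM (0.19 ± 0.06, adjusted p = 0.056). Mrtfa sat just short of the threshold: it was called higher with robust dispersions (0.028), with no scaling factor (0.044) and without untreated replicate 1 (0.026), and its adjusted p was 0.19 by DESeq2 and 0.28 without untreated replicate 2. Mrtfb matched no row by symbol, older symbol or description and is not analysed here. Myocd, the smooth muscle coactivator of SRF, had 0 or 1 count per library. Rock2, a kinase that phosphorylates myosin light chain and its phosphatase, rose from 356 and 361 CPM to 421 and 421 CPM (0.23 ± 0.04, adjusted p = 0.0065), and was called whichever library was left out. Rock1 was at 174 and 180 CPM against 184 and 185 CPM (0.06 ± 0.04, adjusted p = 0.39).

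Other genes of the pathway were read from 4 lists. Among stress fibre LIM and scaffold proteins, 6 of 21 tested genes fell and 0 rose, beside 10.5% and 11.5% of all genes (median -0.11). At an unadjusted p under 0.05 edgeR gave 7 lower and 0 higher, beside 17.4% and 18.6% of all genes, and DESeq2 called 6 and 0, beside 6.93% and 6.97%. Tgfb1i1, a focal adhesion coactivator also called Hic-5 (-0.67 ± 0.06), Svil, which links myosin to the membrane (-0.48 ± 0.04), and Fhl1 (-0.37 ± 0.05) had the smallest adjusted p among the 6. Of 28 tested rows for actin turnover and branching, 2 fell and 5 rose (7.14% and 17.9%), beside 10.5% and 11.5% of all genes. Tmsb4x, which sequesters actin monomer, fell by 0.35 ± 0.04 and Rdx by 0.21 ± 0.05, while Gsn, gelsolin, rose by 0.37 ± 0.06, Ezr by 0.22 ± 0.05 and Arpc2 by 0.19 ± 0.04. In the myosin phosphatase list 1 of 6 fell (Ppp1r14c, -0.19 ± 0.05), beside 10.5% of all genes. Of the striated muscle isoforms, 5 of 21 rows were abundant enough to test. By edgeR 1 of them fell and by DESeq2 0, beside 10.5% and 6.93% of all genes. The 1 was Actn3, chosen after its values were seen, at 49 and 41 counts untreated against 14 and 18 with Rk1. No row of that list exceeded 49 counts. Over the 4 lists, with 21, 28, 6 and 5 tested rows, 10 genes fell and 5 rose, beside 10.5% and 11.5% of all genes. With any 1 library left out, fewer of these genes were called higher, and fewer of all genes were called higher as well. Calls that were lost without at least 1 library among the genes named here were those of Ppp1r14c, Rdx, Ezr and Arpc2. Cttn stands on 2 identifiers, and 1 of them held 896 counts in untreated replicate 2 against 87 to 108 elsewhere.

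**Figure D4:**
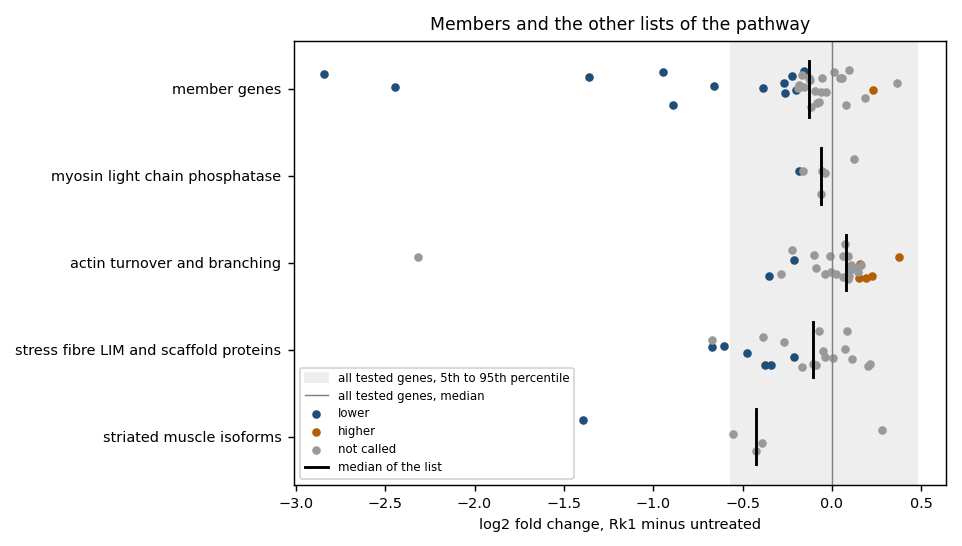
Log2 fold change (Rk1 minus untreated) of every tested gene of the members and of 4 other lists of the pathway, coloured by call, with the median of each list as a bar and the 5th to 95th percentile of all tested genes shaded (-0.56 to 0.47). Of the members, Tagln, Acta2, Mylk, Lmod1, Tpm1 and Smtn lie outside the shaded range and the others within it. In the actin turnover list the tested row of Cttn (-2.32, not called) lies outside it and the others within it.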

How the data were processed

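Total RNA of 4 HSC-T6 libraries was sequenced, and the submitters' processing notes name HISAT2 and HTSeq. Their versions, the strand setting and the handling of multiply mapped reads are not given in these sources. The authors deposited raw counts per Ensembl gene with exon lengths on Rnor_6.0, per the file headers. Groups follow the treatment label. Genes were filtered with filterByExpr (minimum count 10, minimum total 15), scaled by TMM and tested with edgeR 4.0.16 (quasi-likelihood F-test, two-sided, group only), with Benjamini-Hochberg adjustment and a threshold of 0.05. The SE is the log2 fold change divided by the square root of F. RPKM and CPM use TMM-scaled totals. Family ratios add 0.5 to each summed count. Alternatives used DESeq2 1.42.0, limma 3.58.1, other scalings, filters, a replicate block and libraries left out. The edgeR fit was tested on simulated counts, and the difference and permutation steps of the family ratios on a made-up example. The genes, lists and tests were chosen with earlier results of these data known. All members were named. Of each other list, up to 3 called genes per direction with the smallest adjusted p and a mean of at least 5 CPM were named. Actn3, below that mean, and Cttn, not called, were named outside this rule. Results that need items withheld for evaluation are not reported here.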

Additional observations from a re-analysis of the deposited data

How the results depend on the processing

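The number of lower members was 12 and ranged from 11 to 16 over the planned tools, scalings and filters. It was 11 by DESeq2, 15 with upper quartile scaling and 16 with the replicate block. Of all 12316 genes, 1289 were lower in the main fit, 853 by DESeq2, 1556 with upper quartile scaling and 1538 with the replicate block. The genes behind the count of lower members also changed. DESeq2 dropped Cnn2 and Lmod1 and added Myl12a, and the filter at a mean of 5 CPM removed Acta2 and Lmod1 and added Myl12a. The number of higher members was 1, and 2 with robust dispersions, with no scaling factor and with the replicate block. Of all genes, 1422 were higher in the main fit, 1617 with robust dispersions, 1480 with no scaling factor and 1676 with the replicate block. That number was 859 by DESeq2 and 1198 with upper quartile scaling. Genes called in all numbered 2711, but 1712 by DESeq2 and 1795 to 2186 with a library left out. Over the other pathway lists, the 5 higher genes became 3 by DESeq2 and with upper quartile scaling and 8 with the replicate block. The 10 lower genes became 7 by DESeq2, 11 with upper quartile scaling and 12 with the replicate block. With any 1 library left out, fewer genes of these lists were called higher. Same-numbered libraries are not said to be paired, and their deviations from the group means correlated at 0.09 over 12316 genes, so the block is given only here; it also made Actb, Actg1, Actn1 and Myl12a lower and Mrtfa higher. With each library left out the difference in log ratio ranged from -2.64 to -1.81 for actins, -2.71 to -2.64 for transgelins, -0.23 to -0.15 for tropomyosins, -1.42 to -0.58 for calponins, 0.13 to 0.22 for filamins, 0.34 to 0.56 for intermediate filaments and 0.01 to 0.30 for myosin heavy chains. The regulatory light chain ratio, which rests on 2 counts, ranged from -2.25 to 0.29 and changed sign without untreated replicate 2. With the mean of log counts the actin difference was -0.89, because Actg2, at 0 to 2 counts, then weighs as much as Acta2.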
